A study of Homo sapiens with 8 samples.

Results

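The genes described here encode small inhibitors of serine proteases: the Kazal-type inhibitors SPINK1, SPINK2, SPINK4, SPINK5 and SPINK6, the Kunitz-type inhibitors SPINT1, SPINT2 and TFPI2, and the whey acidic protein (WAP) type inhibitors PI3, known as elafin, and SLPI. They were chosen by family around SPINK6, which had been picked because its signal differed most between the groups, and every probe set that the platform annotation assigns to one of the symbols was taken. Of the 10 genes, 9 were measured, by 12 probe sets, among 19775 genes and 54613 probe sets in all. SPINK5 was not analysed here. Because SPINK6 was selected by this very contrast, its values are a description with no test, and counts over the whole set support nothing.

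RNA of the human large-cell lung carcinoma line H460 had been hybridised to 8 Affymetrix arrays. The 4 resistant arrays hold H460 cells that had acquired resistance to TRAIL, a death-inducing ligand of the tumour necrosis factor family, during 6 months of daily treatment at subtoxic concentrations, and the 4 sensitive arrays hold TRAIL-sensitive H460 cells labelled as control. Both were grown in RPMI medium with serum. The labels do not say whether the resistant cells were a clone or a mixed population, whether the sensitive cells were kept in culture for the same time, or when TRAIL was last given, so resistance, exposure and time in culture cannot be told apart. For these inhibitors the question is whether the relatives and chromosomal neighbours of SPINK6 differ between the 2 cell populations as it does.

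Kazal, Kunitz and WAP domains are compact, disulphide-bonded folds that offer a loop to the active site of a serine protease and block it. SPINK6 is a secreted inhibitor of kallikrein-related peptidases in skin and other epithelia. SPINK1 inhibits trypsin in the pancreas, SPINK2 protects sperm, and SPINK4 is made by goblet cells of the gut. SPINT1 and SPINT2 are membrane-bound inhibitors of the activator of hepatocyte growth factor and of the protease matriptase. PI3 and SLPI guard epithelia, the lung among them, against neutrophil elastase. TFPI2 is deposited in the extracellular matrix, where it inhibits plasmin and trypsin.

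Levels are given as log2(signal + 1), and changes as the resistant minus the sensitive mean of these values with the standard error from limma (n = 4 per group). Rose and fell are written of genes whose Benjamini-Hochberg adjusted p was below 0.05. In bulk RNA, fewer cells that carry a transcript and less of it per cell cannot be told apart. The median probe set lay at 5.01, and signals below it are noisy. The median signal of an array was 32.6 to 37.5, and an array correlated with the others of its group at 0.937 to 0.952. The keratin genes KRT7, KRT8, KRT18 and KRT19 lay above the median probe set and the epithelial genes CDH1 and EPCAM below it, and the summed signal of these 6 was 13622 to 16353 on the resistant and 17311 to 20119 on the sensitive arrays. The leukocyte genes PTPRC and CD3E and the endothelial genes VWF and CDH5 lay below the median probe set, and CD14 and PECAM1 above it. Of the lung genes, SFTPB and SFTPC lay above it and NKX2-1 and SCGB1A1 below it (summed signal 134 to 224 on the resistant and 180 to 317 on the sensitive arrays), and of 5 fibroblast genes COL1A1 and COL3A1 lay above it in both groups, DCN and PDGFRB in sensitive cells alone and COL1A2 in neither (summed signal 1162 to 1287 on the resistant and 1255 to 1396 on the sensitive arrays). The 3' minus 5' difference of the ACTB control probe sets was 0.102 to 0.133 on the resistant and 0.226 to 0.231 on the sensitive arrays (exact permutation test, two-sided, p = 0.0286, the smallest that 4 against 4 arrays can give, Benjamini-Hochberg adjusted over 2 controls 0.0571). That of GAPDH was -0.218 to -0.0584 on the resistant and -0.153 to -0.129 on the sensitive arrays (exact permutation p = 0.686). The part of these differences in the results below was not tested.

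The sequences before the start sites of SPINK6, its neighbour SPINK13 and TFPI2 are shown because the signals of these 3 genes were higher in resistant cells. RefSeq (GRCh38.p14) promoters were matched for 6 of the 9 measured genes and for SPINK13, a further Kazal gene beside SPINK6. None was matched for PI3, which also rose, or for SLPI and SPINT2. The 250 bases before the start site are printed 5′ to 3′ on the gene's strand. Capitals mark matches, on either strand, to the TATA box TATAAA, the CCAAT box (spelled as its name), the AP-1 core TGANTCA or a loose form of the NF-kB site (GGG and CC separated by any 5 bases).
SPINK6, chr5:148202528-148202777, plus strand: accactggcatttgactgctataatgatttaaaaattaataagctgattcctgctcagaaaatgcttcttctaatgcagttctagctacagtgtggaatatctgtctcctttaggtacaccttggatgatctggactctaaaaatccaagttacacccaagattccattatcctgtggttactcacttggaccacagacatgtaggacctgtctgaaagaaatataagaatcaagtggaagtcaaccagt
SPINK13, chr5:148268544-148268793, plus strand: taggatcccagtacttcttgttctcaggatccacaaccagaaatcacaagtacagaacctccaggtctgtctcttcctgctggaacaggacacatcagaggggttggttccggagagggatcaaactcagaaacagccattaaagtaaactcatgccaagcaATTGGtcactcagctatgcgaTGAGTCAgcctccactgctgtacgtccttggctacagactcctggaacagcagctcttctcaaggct
TFPI2, chr7:93890754-93891003, minus strand: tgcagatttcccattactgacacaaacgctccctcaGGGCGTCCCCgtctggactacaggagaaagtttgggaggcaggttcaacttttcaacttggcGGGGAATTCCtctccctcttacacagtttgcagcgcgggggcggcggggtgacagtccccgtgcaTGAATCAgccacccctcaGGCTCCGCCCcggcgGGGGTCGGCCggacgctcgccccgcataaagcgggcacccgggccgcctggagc
No match to any of the 4 motifs was found in the window before the first SPINK6 start, whose GC content was 38.8%, against 49.6% for SPINK13 and 64.4% for TFPI2. The AP-1 core was matched once in SPINK13, 67 bases before the start, and once in TFPI2, 87 bases before it. Of 35116 RefSeq promoter windows of this length, 6.57% hold the AP-1 core, 10.7% the TATA box, 32.0% the CCAAT box and 54.4% the NF-kB form. TFPI2 held 4 matches to the last of these. SPINT1, which did not pass the test, held 7 and 3 in its windows, whose GC content was 80.4% and 70.4%. SPINK2 held 1 in each of its windows. SPINK4 was the only one of the 6 members with the TATA box, 29 bases before its start, and SPINK1 held none of the 4 motifs. RefSeq lists a further start for SPINK6, whose window overlaps the transcript of the first and is not printed; it held 1 match to the NF-kB form, 80 bases before that start, and 2 to the CCAAT box, 212 and 128 bases before it. A match describes the letters and no binding.

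SPINK6 was dim in sensitive cells and bright in resistant cells, and its change was the highest of all 19775 genes, the next being 7.18. On probe set 1553973_a_at its level was 12.39, 12.44, 12.48 and 12.76 in resistant cells, against 4.34, 5.40, 4.62 and 4.84 in sensitive cells. These correspond to signals of 5369 to 6925 in resistant and 19.2 to 41.3 in sensitive cells. Every resistant array lay far above every sensitive array, with means of 12.52 ± 0.16 in resistant and 4.80 ± 0.45 in sensitive cells (SD). The sensitive mean lay below the median probe set, so the change of 7.72 ± 0.23 rests on a noisy low signal there. It was 7.56 to 7.92 when each array was left out in turn and 7.09 with a pseudocount of 16. The probe set is the single one listed for the gene, and its suffix marks probes that match more than 1 transcript.

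The other Kazal genes in the set were dim in both groups. SPINK1 had levels of 3.85, 4.92, 3.79 and 4.56 in resistant cells, against 4.38, 1.47, 1.57 and 3.73 in sensitive cells. Sensitive array 1 lay within the resistant range, and the other sensitive arrays lay below it. Its change was 1.49 ± 0.72 (95% interval -0.20 to 3.18, limma adjusted p = 0.213). SPINK2 lay at 1.86, 2.18, 1.42 and 4.08 in resistant cells, against 2.32, 4.17, 3.94 and 3.28 in sensitive cells, a change of -1.04 ± 0.65 (limma adjusted p = 0.338). Resistant array 4 carried the highest of the resistant values and the groups overlapped. SPINK4 ranged between 2.51 and 4.09 in resistant and between 2.35 and 5.09 in sensitive cells, a change of -0.41 ± 0.69 (limma adjusted p = 0.752), and its sign turned without sensitive array 1 (0.08). No mean of these 3 genes reached the level of the median probe set in either group.

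Neither membrane-bound Kunitz inhibitor passed the test, and only 1 of their 3 probe sets lay above the median probe set. SPINT1 has 2 probe sets. On 235546_at its level was 5.48, 5.12, 5.17 and 5.83 in resistant cells, against 5.98, 5.68, 5.99 and 5.89 in sensitive cells. The resistant values were the lower ones apart from array 4, which lay within the sensitive range. The change of -0.49 ± 0.18 did not pass (limma adjusted p = 0.109), and it passed without resistant array 4 (-0.63, limma adjusted p = 0.0270) and when dim probe sets were left out of the fit (limma adjusted p = 0.0395). On 202826_at, below the median probe set, SPINT1 ranged from 2.80 to 4.68 in resistant and from 2.04 to 5.51 in sensitive cells, a change of -0.03 ± 0.79 (limma adjusted p = 0.985) that turned positive after median centring (0.04) and quantile normalization (0.01). SPINT2 had levels of 1.43 to 3.80 in resistant and 1.70 to 4.09 in sensitive cells, a change of -0.06 ± 0.74 (limma adjusted p = 0.970), which turned to 0.01 after median centring. Both signs also turned when certain single arrays were left out, with changes of -0.61 to 0.54 for SPINT1 on 202826_at and of -0.47 to 0.42 for SPINT2. The standard errors of the 5 probe sets that were dim in both groups were 0.653 to 0.792, against 0.099 to 0.231 for the other 7, and the 95% intervals of the dim ones reached beyond a 2-fold change.

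**Figure D1:**
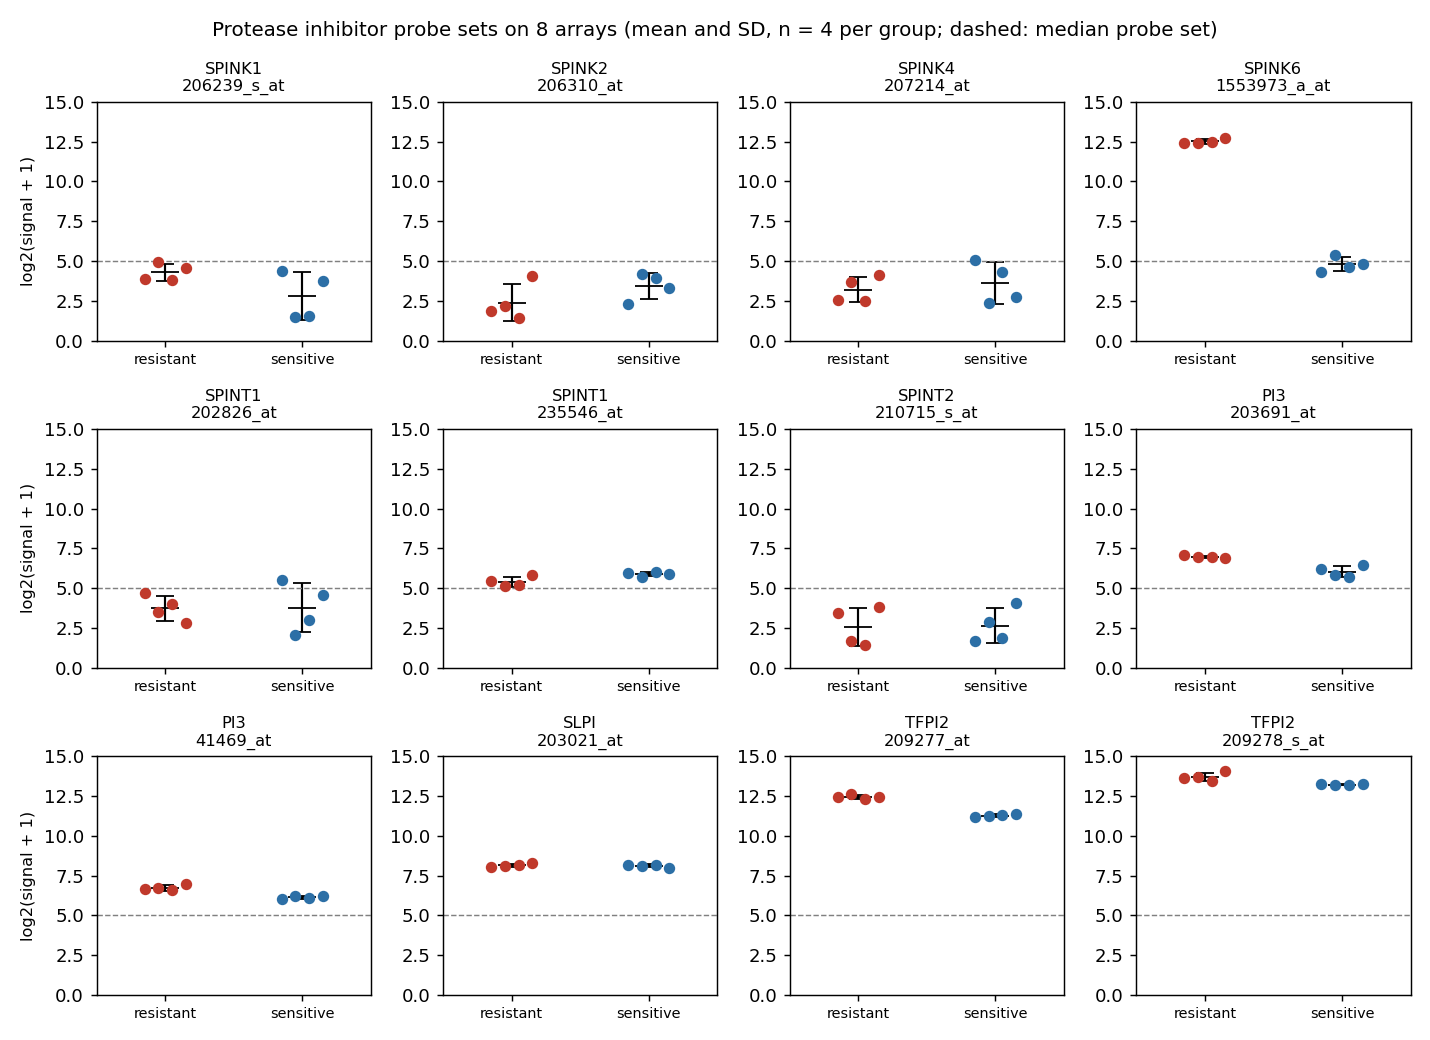
Level, as log2(signal + 1), of each of the 12 probe sets on the 4 resistant (left, red) and 4 sensitive (right, blue) arrays, with mean and SD in black and the median probe set, 5.01, as a dashed line. SPINK6 lies at 12.39 to 12.76 in resistant and 4.34 to 5.40 in sensitive cells, PI3 and TFPI2 are separated by group on both of their probe sets, and the other probe sets overlap.

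TFPI2 was abundant in both groups and rose in resistant cells on both of its probe sets. On 209277_at its level was 12.46, 12.61, 12.32 and 12.41 in resistant cells, against 11.19, 11.22, 11.27 and 11.40 in sensitive cells. The groups were well apart and the change was 1.18 ± 0.10, or 2.27-fold (limma adjusted p = 0.000391). On the brighter 209278_s_at the level was 13.61, 13.71, 13.46 and 14.05 in resistant cells, against 13.22, 13.22, 13.19 and 13.22 in sensitive cells. The groups did not overlap there either, but the change was smaller, 0.50 ± 0.14 (limma adjusted p = 0.0435), and this call was lost without resistant array 1 or 2 or any 1 of the sensitive arrays, with changes of 0.38 to 0.58 and adjusted p-values of 0.0380 to 0.0980 when each array was left out. The call on 209277_at held in each of these settings (adjusted p up to 0.0026).

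PI3 rose and its relative SLPI, which lies 3 measured genes away on chromosome 20, did not pass the test. On 203691_at PI3 had levels of 7.08, 6.95, 6.93 and 6.90 in resistant cells, against 6.19, 5.81, 5.70 and 6.47 in sensitive cells, a change of 0.92 ± 0.18, or 1.90-fold (limma adjusted p = 0.0113). On 41469_at the levels were 6.63, 6.73, 6.56 and 6.99 in resistant cells, against 6.03, 6.20, 6.07 and 6.20 in sensitive cells, a change of 0.61 ± 0.12, or 1.52-fold (limma adjusted p = 0.0119). All resistant arrays lay above all sensitive arrays on both probe sets. SLPI had levels of 8.04, 8.10, 8.14 and 8.29 in resistant cells, against 8.17, 8.13, 8.17 and 7.99 in sensitive cells. The groups overlapped, with resistant array 4 above every sensitive array and sensitive array 4 below every resistant one, and the change of 0.03 ± 0.10 (limma adjusted p = 0.884) had a 95% interval of -0.20 to 0.26 and turned to -0.02 without resistant array 4. The 2 genes between them in the order of measured genes, SEMG1 and SEMG2, which encode proteins of semen, changed by 0.01 ± 0.77 and -0.07 ± 0.61 at mean levels below 3.

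Of the 11 probe sets other than that of SPINK6, 4 rose, 0 fell and 7 did not pass, against 19.5% of all probe sets that passed in either direction. The 4 belong to 2 genes, PI3 and TFPI2. At an unadjusted p below 0.05 the count was 5, the further one being SPINT1 on 235546_at, against 31.2% of all probe sets. Including SPINK6, 5 of 12 probe sets had groups that did not overlap, as had 26.4% of all probe sets. The median change of the 11 was 0.03, against -0.04 over all probe sets. The highest change among the 11 was that of SPINK1, 1.49, which did not pass. The set was drawn up with this contrast known, and nothing is read from these shares.

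**Figure D2:**
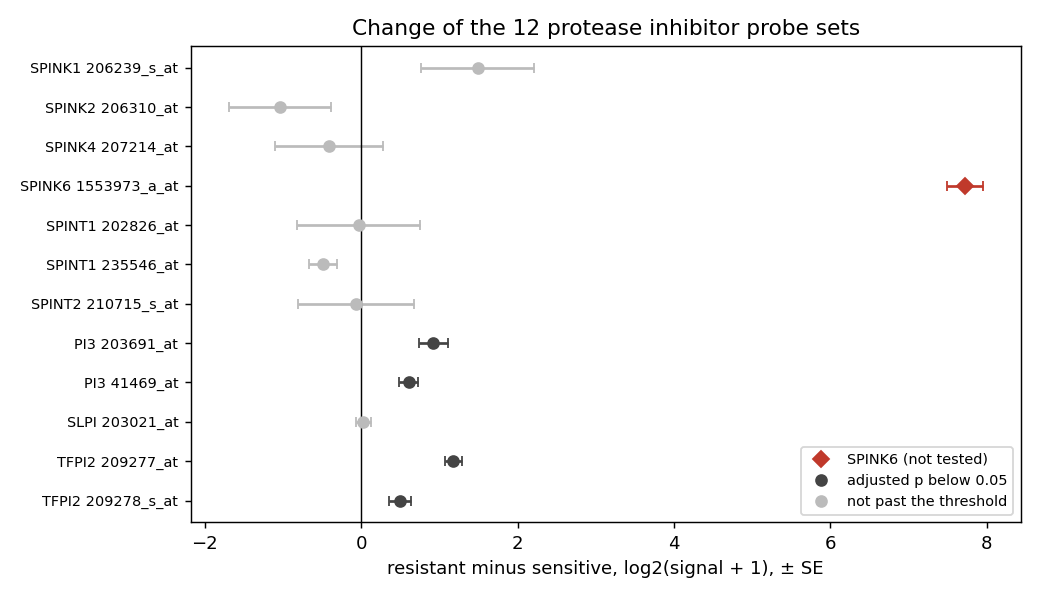
Change of each of the 12 probe sets, resistant minus sensitive, in log2(signal + 1) with its standard error. SPINK6, red and not tested, stands at 7.72, the 4 probe sets of PI3 and TFPI2, dark, lie between 0.50 and 1.18, and the grey ones did not pass the test.

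Beside SPINK6 on chromosome 5, C5orf46, FBXO38-DT and SPINK13 rose in resistant cells, and 4 genes farther out fell. Of the 20 nearest measured genes in the order of the RefSeq table (10 on each side), 3 rose and 4 fell, against 14.7% of all genes that rose and 15.6% that fell (30.3% in either direction). SPINK13, a Kazal inhibitor that is the second measured gene on one side, had levels of 8.23, 8.09, 7.87 and 7.97 in resistant cells, against 5.35, 4.30, 4.69 and 4.51 in sensitive cells. It rose by 3.33 ± 0.23, or 10.0-fold (limma adjusted p = 6.9e-05), and the groups were far apart. C5orf46, the nearest measured gene on the other side, which encodes a small secreted peptide, lay at 7.08, 7.18, 7.07 and 7.30 in resistant cells, against 2.78, 5.48, 4.68 and 4.76 in sensitive cells, a change of 2.73 ± 0.53 (limma adjusted p = 0.00694). Sensitive array 1 was the lowest by far, and without it the change was 2.19. FBXO38-DT, a long non-coding RNA whose interval in the RefSeq table overlaps SPINK13, had levels of 5.90, 5.89, 5.78 and 5.93 in resistant cells, against 5.15, 4.46, 4.22 and 5.06 in sensitive cells, and rose by 1.16 ± 0.22 (limma adjusted p = 0.00599). Signals of overlapping genes may not be separate results, since whether these probes read 1 strand only was not tested.

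The next genes on either side did not pass. SCGB3A2, a secretoglobin gene of airway cells between C5orf46 and SPINK1, changed by -0.35 ± 0.49 at mean levels below 2, and SPINK7, the third gene beyond SPINK6 on the other side, by 0.26 ± 0.65 (limma adjusted p = 0.819), both at levels near the floor. FBXO38, which follows SPINK7 and is well measured at 9.30 in resistant and 9.21 in sensitive cells, changed by 0.08 ± 0.11 (limma adjusted p = 0.638), as did its other 2 probe sets by 0.08 and 0.04. The 4 falls were those of DPYSL3, a gene of neuronal growth cones, by 1.17 ± 0.13, AFAP1L1, an actin-associated protein gene, by 0.98 ± 0.13, GRPEL2, a mitochondrial co-chaperone gene, by 0.59 ± 0.12 and PCYOX1L by 0.83 ± 0.09 (limma adjusted p = 0.00849 or less). DPYSL3 did not pass on its probe set without a cross-hybridisation suffix (-0.87, limma adjusted p = 0.274). Among the 10 nearest genes, 5 on each side, 3 rose and 0 fell by limma, against 14.7% and 15.6% of all genes. This narrower window was not part of the plan, which took 10 genes on each side. At an unadjusted p below 0.05, 4 of the 10 were higher and 1 lower, against 39.5% of all genes in either direction. DPYSL3, which fell, is the next gene outside these 10. SPINK5, SPINK9 and SPINK14 also lie in this stretch and were not analysed here.

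**Figure D3:**
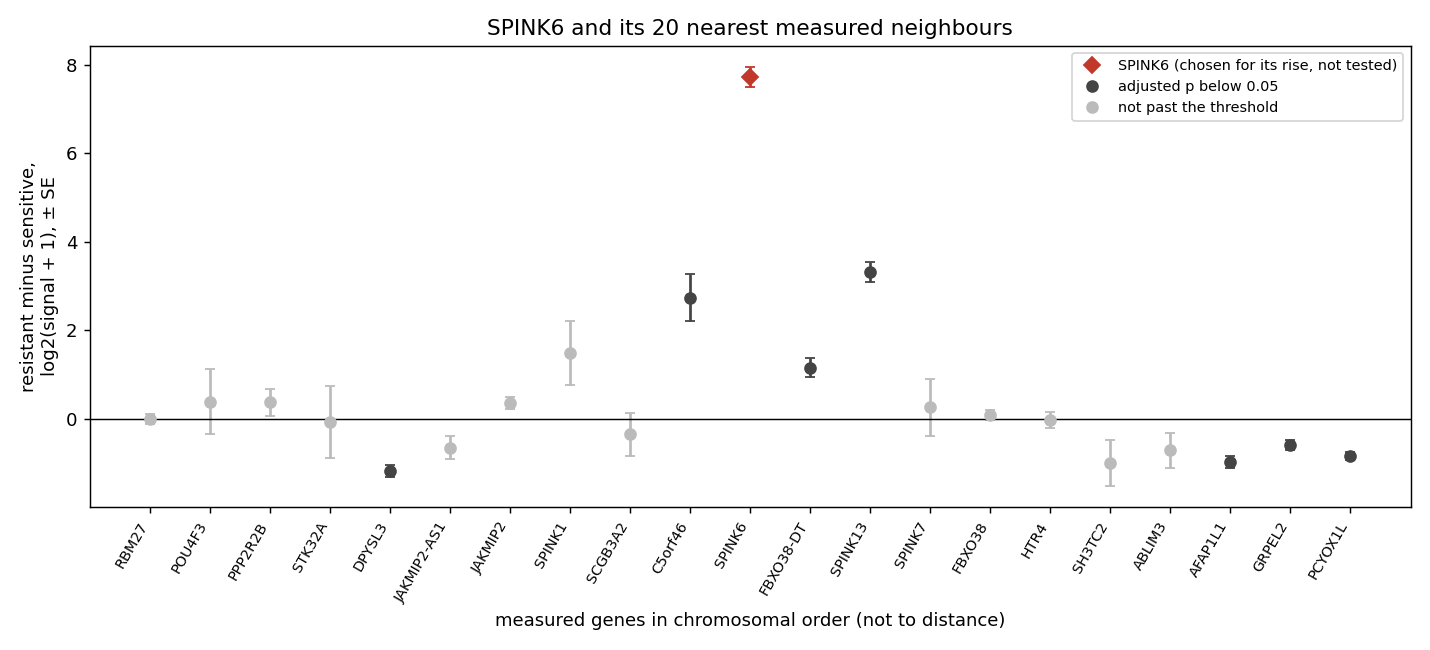
Change of SPINK6 (red) and of the 20 nearest measured genes in chromosomal order, resistant minus sensitive, in log2(signal + 1) with the standard error, dark where the adjusted p was below 0.05. C5orf46, FBXO38-DT and SPINK13 lie above 0 beside SPINK6, and DPYSL3, AFAP1L1, GRPEL2 and PCYOX1L lie below 0 farther out.

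Neighbours of the other members were counted in the same way. Of 38 further neighbours (3 on each side of each member other than SPINK1, which lies beside SPINK6, each counted once and members left out), 7 rose and 3 fell, against 14.7% and 15.6% of all genes. TFPI2 lies between CALCR, the calcitonin receptor gene, which changed by 0.54 ± 0.46 (limma adjusted p = 0.445), and GNGT1, a G-protein subunit gene, which fell by 2.56 ± 0.49 at levels below the median probe set (limma adjusted p = 0.00645). PI3 lies beside WFDC12, another WAP gene, which changed by -0.13 ± 0.54 (limma adjusted p = 0.896). HOPX, a homeodomain gene of lung epithelium next to SPINK2, fell by 2.55 ± 0.10, to 7.96 in resistant cells, against 10.51 in sensitive cells. REST, on the other side of SPINK2, changed by 0.41 ± 0.36 (limma adjusted p = 0.458). Beside SPINK4, BAG1, a co-chaperone gene, rose by 0.75 ± 0.09 (limma adjusted p = 0.000926), and B4GALT1 changed by -0.24 ± 0.14. Beside SPINT2, PPP1R14A changed by -0.19 ± 0.14 and YIF1B by -0.27 ± 0.10, neither past the test. MATN4 beside SLPI changed by 0.21 ± 0.14 and RHOV beside SPINT1 by 0.95 ± 0.77, also not past it. The antisense gene SPINT1-AS1 changed by 0.22 ± 0.16 (limma adjusted p = 0.382).

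Among other genes with Kazal, Kunitz or WAP domains the share that passed was near that of all genes. On a list of 43, of which 36 were measured, 4 genes rose, 6 fell and the other 26 missed the threshold, at a median change of -0.12, against -0.03 over all genes. The 27.8% that passed stand beside 30.3% of all genes (14.7% rose and 15.6% fell). Among 14 Kazal genes 2 rose and 3 fell, among 10 Kunitz genes 1 rose and 3 fell, and among 12 WAP genes 1 rose. TFPI, the main inhibitor of the tissue factor pathway and the closest relative of TFPI2, fell, in contrast to TFPI2. Its level was 10.53, 10.45, 10.62 and 10.59 in resistant cells, against 11.17, 11.23, 11.30 and 11.18 in sensitive cells, a change of -0.67 ± 0.07 (limma adjusted p = 0.0004), and its other 4 probe sets changed by -0.37 to -1.37. SPOCK1, a proteoglycan with a Kazal-like domain, lay at 10.32 to 10.47 in resistant and at 12.06 to 12.28 in sensitive cells and fell by 1.79 ± 0.08. The groups were clearly apart for both genes.

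HTRA1, a secreted serine protease that carries a Kazal-like domain, fell by 1.36 ± 0.15, and the amyloid precursor-like gene APLP2, which has a Kunitz domain, by 0.63 ± 0.09. COL7A1, the anchoring-fibril collagen with a Kunitz domain, rose by 0.89 ± 0.11, and by 1.47 on its other probe set. FST, the activin antagonist follistatin, and APP, the amyloid precursor, fell by 0.48 ± 0.12 and 0.32 ± 0.07. FST did not pass without resistant array 2 or 3 or sensitive array 1 or 3 (adjusted p up to 0.0585), and its other probe sets changed by 0.06 and -0.37 (limma adjusted p = 0.871 and 0.0688). APP did not pass after median centring (-0.25, limma adjusted p = 0.0607), with the mean of its probe sets (-0.23, limma adjusted p = 0.108) or with suffix-free probe sets (-0.24, limma adjusted p = 0.519), and its other 2 probe sets had overlapping groups (limma adjusted p = 0.557 and 0.539). The rises of TMEFF2 (0.91 ± 0.29) and WFDC10A (1.32 ± 0.41, at mean levels below 3) were lost in most leave-outs of 1 array. The count of rises was therefore 2 without resistant array 2 or 3 or any 1 of the sensitive arrays. With the mean of its probe sets TMEFF2 was at -0.35.

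Of 66 listed proteases, substrates and receptors, 61 had a probe set, and 3 of these rose, 5 fell and 53 missed the threshold (13.1% passed, against 30.3% of all genes), and the median change was -0.17. Of 14 kallikrein genes, 0 rose and 1 fell by limma, and at an unadjusted p below 0.05, 0 were higher and 2 lower, against 39.5% of all genes in either direction. The kallikreins that SPINK6 is known to inhibit, named here after their values were seen, were KLK5 at 4.28 in resistant and 4.63 in sensitive cells, KLK7 at 5.03 in resistant and 5.11 in sensitive cells, and KLK14 at 1.91 in resistant and 2.53 in sensitive cells, with changes of -0.35 ± 0.69, -0.08 ± 0.20 and -0.61 ± 0.20 (limma adjusted p = 0.765, 0.822 and 0.0523). KLK10 fell by 1.59 ± 0.40 from a level below the median probe set, and its other probe set changed by -0.14 ± 0.83. Its call was lost without resistant array 1, 2 or 3 or sensitive array 1 (adjusted p up to 0.0589).

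The trypsin-activating enteropeptidase gene TMPRSS15 rose by 3.52 ± 0.12 (limma adjusted p = 4.2e-06), with levels of 9.17, 8.93, 9.09 and 8.88 in resistant cells, against 5.70, 5.60, 5.36 and 5.35 in sensitive cells. Its other probe set rose by 5.45 ± 0.37. All resistant arrays lay far above the sensitive ones. TGM2, a tissue transglutaminase of the enzyme family that cross-links elafin into matrix, lay at 9.17, 9.12, 9.26 and 8.94 in resistant cells, against 4.75, 5.17, 5.25 and 5.31 in sensitive cells, and rose by 4.0 ± 0.14. Its relative TGM3 fell by 1.79 ± 0.31 at mean levels below the median probe set. Of the 4 probe sets of TGM2, 3 rose and 216183_at, dim in both groups, changed by -0.43 ± 0.47.

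The plasminogen activator genes fell. PLAU, which encodes urokinase, had levels of 8.62, 8.52, 8.37 and 8.65 in resistant cells, against 9.89, 10.08, 10.00 and 9.96 in sensitive cells, a change of -1.44 ± 0.09 (limma adjusted p = 4.64e-05), and PLAT, which encodes tissue plasminogen activator, fell by 0.81 ± 0.19. F3, the gene of tissue factor, rose by 0.50 ± 0.11. ELANE, the neutrophil elastase gene that is the textbook target of PI3 and SLPI, lay at 3.21 in resistant and 5.04 in sensitive cells, a change of -1.82 ± 0.41 around the level of the median probe set and below. Of 13 membrane serine proteases, among which are the targets of SPINT1 and SPINT2, 0 passed by limma and 1 had an unadjusted p below 0.05, and of 5 genes of hepatocyte growth factor activation 0 passed and 0 had an unadjusted p below 0.05. Of all genes 30.3% passed and 39.5% had an unadjusted p below 0.05. A dim gene that did not pass is not thereby shown to be unchanged. The part of low signal in the shares of the protease list was not tested.

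**Figure D4:**
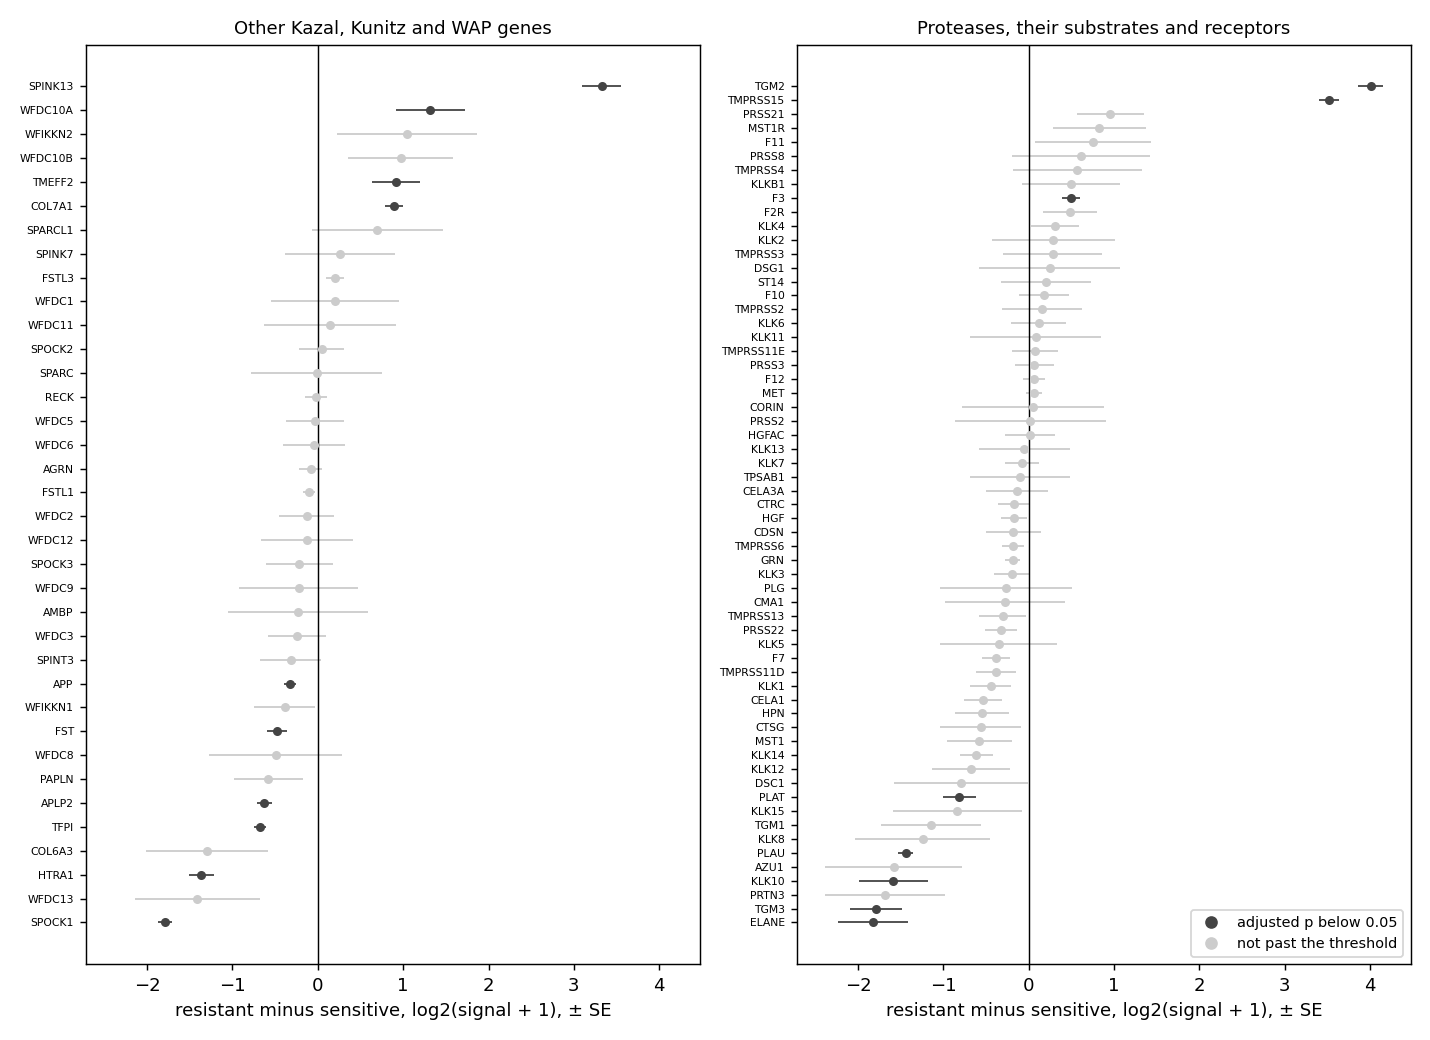
Change, resistant minus sensitive, in log2(signal + 1) with the standard error, of 36 other genes with Kazal, Kunitz or WAP domains (left) and 61 proteases, substrates and receptors (right), dark where the adjusted p was below 0.05. SPINK13 stands at 3.33 and SPOCK1 at -1.79 on the left, and TGM2 at 4.0, TMPRSS15 at 3.52 and PLAU at -1.44 on the right.

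The profile of SPINK6 over the 8 arrays was most like those of CNTN1 (Pearson r = 0.9996), CA2 (0.997), IL13RA2 (0.997), POSTN (0.997) and DKK1 (0.997), among 26 genes that changed at least 16-fold and lay above the median gene in 1 group. Such values mostly restate that both genes differ between the same 2 groups, and the arrays are shared. CNTN1, a neuronal adhesion molecule gene, lay at 10.63 in resistant and 6.58 in sensitive cells. For PI3 the closest of 10308 genes were CHAF1B, CPPED1 and WDR35 (r = 0.986, 0.984 and 0.984), and for TFPI2 on 209278_s_at they were TFRC, DSTN and CSE1L (r = 0.990, 0.986 and 0.985). TFRC, DSTN and CSE1L changed by 0.46, 0.17 and 0.22. Over the 4 resistant arrays alone their r with TFPI2 was 0.988, 0.989 and 0.986. It was 0.520 to 0.988 for the genes named with SPINK6 and 0.587 to 0.811 for those with PI3. All these genes were picked on the same arrays, so a high r here supports nothing. TFPI2 on 209278_s_at had an SD of 0.25 in resistant and 0.016 in sensitive cells, so its r mostly reflects the resistant arrays. Resistant array 4 was the highest of its group for SPINK2, SPINK4, SPINK6, SPINT2, SLPI, SPINT1 on 235546_at, TFPI2 on 209278_s_at and PI3 on 41469_at. It was the lowest for SPINT1 on 202826_at and PI3 on 203691_at, and neither for SPINK1 and TFPI2 on 209277_at.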

How the data were processed

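The authors deposited 1 table of linear signal intensity values for 8 Affymetrix arrays of total RNA. RMA is named in the submitters' processing notes, but the deposited intensity values are on a linear scale and every array has the same 2% trimmed mean of 200.0, so the exact summarisation is not given in the sources used here. Of 54675 probe sets, 62 controls were left out and 54613 tested as log2(signal + 1) with limma 3.58.1 (lmFit and eBayes) in R 4.3.3, with Benjamini-Hochberg adjustment over all of them. Values of the members come from this fit. Neighbours and gene lists come from a second fit of 19775 genes, each by its brightest probe set, named through the platform annotation (41097 probe sets with 1 symbol, 1801 with several, 11777 not listed).

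The members, lists and tests were chosen with earlier results of these data known. Named genes are all members, the neighbours of SPINK6 that passed with the nearest on each side, and the nearest neighbours of the members other than SPINK1. The genes of both lists that passed and those with the most similar profiles are also named. SCGB3A2, SPINK7, FBXO38, KLK5, KLK7 and KLK14 were named outside this rule, with their values known. The labels do not say whether the 4 arrays of a group are separate cultures, and the p-values therefore reflect array-to-array spread alone, possibly technical. The number of arrays limits the precision. Same-numbered arrays did not deviate together (r = -0.0253 to 0.0149), so no pairing was used. Alternatives changed the normalization, pseudocount, filter, probe set choice, prior, replicate block and left out each array.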

Additional observations from a re-analysis of the deposited data

How the results depend on the processing

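SPINK13, C5orf46, FBXO38-DT, TFPI, TGM2, TMPRSS15, PLAU and TFPI2 on 209277_at kept their direction and passed in every alternative in which they were measured. Leaving out 1 array gave 4928 to 5776 changed genes and 7885 to 10134 changed probe sets, and 2 to 4 related inhibitors that rose. With the mean of all probe sets 2 related inhibitors rose and TMEFF2 reversed to -0.35 (limma adjusted p = 0.533). With suffix-free probe sets, 2 related inhibitors rose, 2 neighbours of SPINK6 fell and 2 target proteases fell. This setting drops SPINK6, SPINK1, SPINT2, PLAU, PLAT and PCYOX1L, among others. It reads DPYSL3 and KLK10 from other probe sets, dim in both groups, which did not pass. Leaving out dim probe sets gave 3 target proteases that fell, since KLK10 and TGM3, with means below the median probe set in both groups, were dropped. A pseudocount of 16 moved SPINK6 to 7.09. The cause of the other moves was not tested. Dim probe sets limit what can be said of SPINK1, SPINK2, SPINK4 and SPINT2.

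With the replicate number as a block, 5062 probe sets changed (2190 higher and 2872 lower), against 10637 without it (4984 higher and 5653 lower), and 3 target proteases fell. PI3 then had limma adjusted p-values of 0.0539 and 0.0508 and TFPI2 on 209278_s_at 0.111, and APP, FST, KLK10 and PLAT had 0.05005, 0.0596, 0.0708 and 0.0528. The same-numbered arrays share only a number.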
